A study of Mus musculus with 12 samples.

Results

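The genes described here handle dietary lipid, retinol and bile acids in the absorptive cells of the small intestine. They are Apoa1, Apoa4, Apoc3, Apob, Mttp, Fabp1, Fabp2, Rbp2, Fabp6 and Fgf15, 10 in all. A probe set, the group of short probes that reads a transcript on the array, was assigned to 9 of them, out of 11807 genes with a probe set, and Apob was not analysed here. They were chosen by their measured levels in the array titled CL_WT2 against the other 5 colon arrays, so that difference is given below as a description, with no test.

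RNA came from stomach and colon of mice of strain C57BL/6, aged 16 weeks and given no treatment, and was measured on 12 Affymetrix HT Mouse Genome arrays. The genotypes of Spdef, a transcription factor of mucus-producing cells, were compared: wild type (WT), carriers of 1 mutant allele (HET) and knockout (KO), each with 2 arrays per tissue. How the allele was made is not given in the sources used here. The labels do not state whether the 2 arrays of a group hold different mice, so the spread that enters the p-values may be technical. Levels are log2(intensity + 16) after quantile normalization, and 6.53, the 40th percentile of an array, served as the level below which a gene counts as dim.

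In enterocytes, absorbed fatty acids are rebuilt into triglyceride and packed, with apolipoproteins, into chylomicrons that leave through the lymph. Bile acids that have served fat digestion are taken up in the ileum, the last stretch of the small intestine, and there they activate the nuclear receptor FXR, encoded by Nr1h4. FXR switches on the gene of a cytosolic bile acid carrier, Fabp6, and that of the hormone Fgf15, which reaches the liver and lowers bile acid synthesis. Most of these genes are known to be low or absent in colon.

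The array titled CL_WT2, labelled as colon of a wild type mouse, stood apart from the rest. Across genes, it correlated with its tissue at a mean of 0.927, whereas the remaining colon arrays had means of 0.954 to 0.968. The colonic carbonic anhydrase Car1 was at 6.65 in it and between 13.50 and 14.01 in the other 5, and Hoxa10, a patterning gene of the hindgut, was at 4.81 against 7.74 to 9.51. Spdef itself lay at 8.74 in CL_WT2 and at 10.97 in colon WT 1, between 9.81 and 10.27 in colon HET, between 9.08 and 9.25 in colon KO and between 8.63 and 9.19 in stomach. Since the position of this probe set in the gene was not compared with the mutation, these levels do not check the labels. The tests below leave CL_WT2 out of the fit, and values that include it are named as such.

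Sequences from RefSeq (GRCm38.p6) were at hand for the promoters of 8 of the 10 genes, from 250 bases before to 50 after the annotated start. The promoters of Fabp6, Apoa4, Fabp2 and Rbp2 are shown because each holds a motif of an intestinal nuclear receptor. Capitals mark matches to 4 motifs, searched on both strands: AGGTNANTNACCT, an inverted repeat of the kind that FXR binds, CAAAGTNCA, of the type bound by the enterocyte and liver factor HNF4, the TATA box TATAAA and the GATA motif AGATAA. In Rbp2 the matches to the GATA motif and to a TATA box overlap. They lie at chr11:43601513-43601812 (minus strand) for Fabp6, chr9:46240594-46240893 (plus strand) for Apoa4, chr3:122894822-122895121 (plus strand) for Fabp2 and chr9:98490287-98490586 (plus strand) for Rbp2, each written 5′ to 3′ along its gene.
Fabp6: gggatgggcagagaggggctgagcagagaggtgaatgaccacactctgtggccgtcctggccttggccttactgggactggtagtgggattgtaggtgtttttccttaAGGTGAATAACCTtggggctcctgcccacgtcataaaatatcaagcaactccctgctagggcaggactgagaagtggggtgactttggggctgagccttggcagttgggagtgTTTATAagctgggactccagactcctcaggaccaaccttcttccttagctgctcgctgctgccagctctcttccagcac
Apoa4: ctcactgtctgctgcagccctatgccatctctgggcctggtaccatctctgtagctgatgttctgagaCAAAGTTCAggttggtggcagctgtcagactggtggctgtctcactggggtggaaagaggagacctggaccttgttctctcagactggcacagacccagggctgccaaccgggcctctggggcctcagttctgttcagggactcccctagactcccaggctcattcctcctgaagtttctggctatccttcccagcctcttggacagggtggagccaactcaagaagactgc
Fabp2: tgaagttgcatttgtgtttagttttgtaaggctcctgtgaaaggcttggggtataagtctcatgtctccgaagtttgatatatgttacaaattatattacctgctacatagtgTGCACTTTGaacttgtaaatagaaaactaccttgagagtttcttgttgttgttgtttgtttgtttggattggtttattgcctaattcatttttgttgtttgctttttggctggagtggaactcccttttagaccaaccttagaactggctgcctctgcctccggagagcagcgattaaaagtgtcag
Rbp2: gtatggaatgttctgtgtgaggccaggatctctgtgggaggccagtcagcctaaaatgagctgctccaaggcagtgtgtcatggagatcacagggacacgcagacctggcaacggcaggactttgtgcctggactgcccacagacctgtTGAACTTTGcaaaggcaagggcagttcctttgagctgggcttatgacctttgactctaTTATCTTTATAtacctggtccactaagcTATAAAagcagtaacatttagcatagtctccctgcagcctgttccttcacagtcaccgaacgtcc

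The inverted repeat in Fabp6 reads AGGTGAATAACCT and begins 142 bases upstream of the start. That motif was found in 7 of 32851 promoters of this length, or 0.0213%, and in none of the other 7 promoters of these genes. The HNF4 type motif was found in Apoa4, Fabp2 and Rbp2, beginning 182, 137 and 101 bases upstream, that is in 3 of 8 promoters against 1.41% of all promoters. The TATA box was in 4 of 8 (Apob, Fabp1, Rbp2 and Fabp6) against 13.6%, and the GATA motif in 1 of 8 (Rbp2) against 11.2%. A match is a stretch of letters and no evidence of binding.

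**Figure D1:**
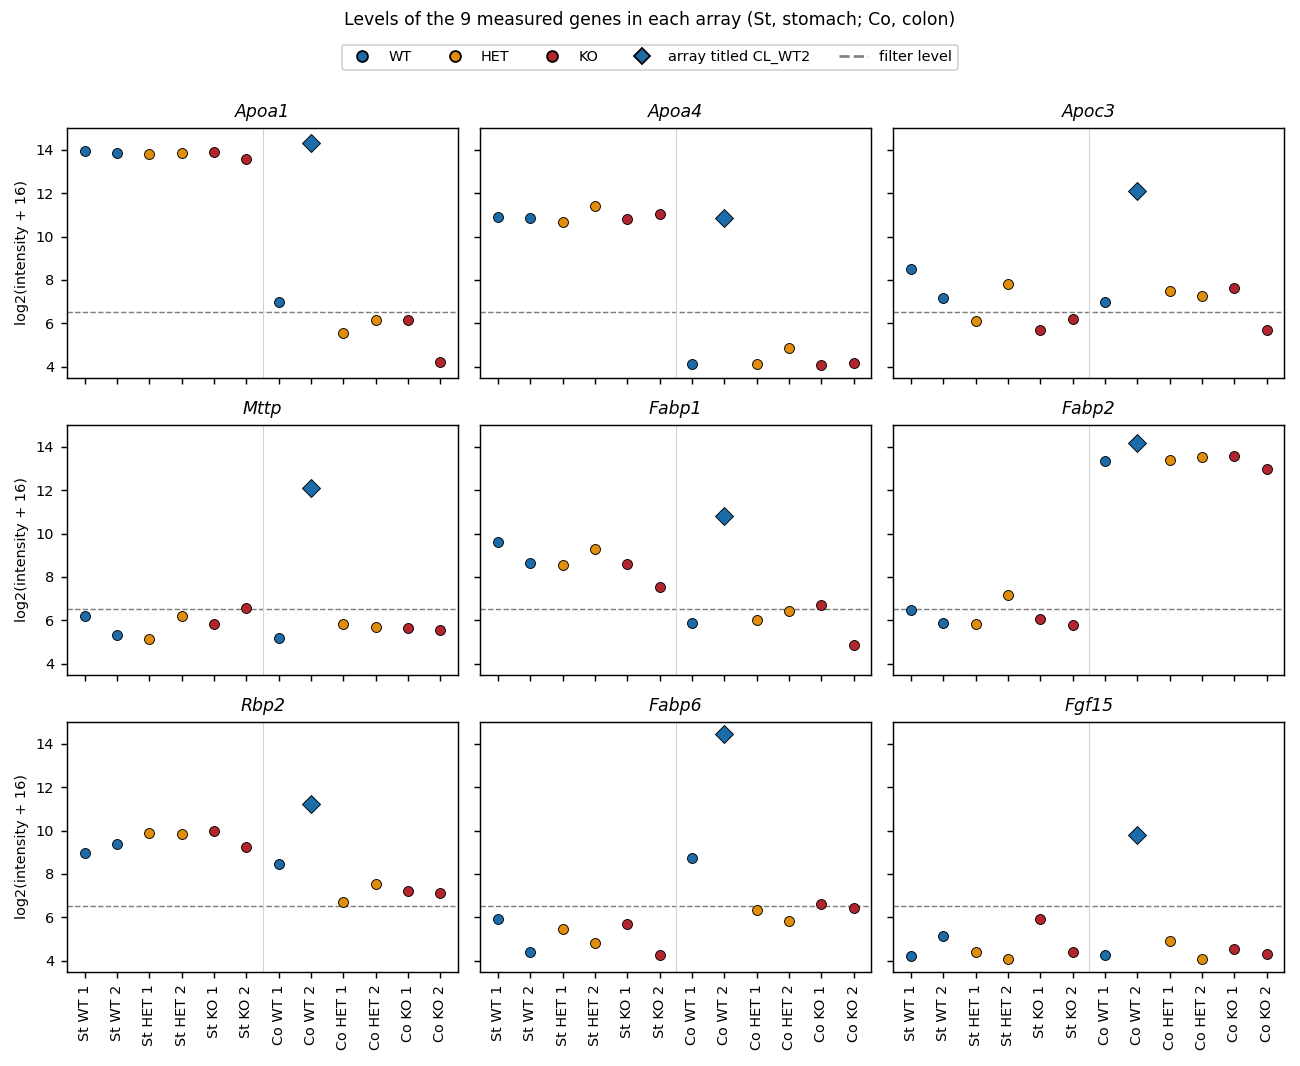
Level of each of the 9 measured genes in the 12 arrays, as log2(intensity + 16) after quantile normalization, with 1 point per array, colour for genotype and a diamond for the array titled CL_WT2. The dashed line is the dim level of 6.53. Apoa1, Apoa4, Fabp1 and Rbp2 were higher in all 6 stomach arrays than in the 5 other colon arrays, Fabp2 was lower, and Mttp and Fgf15 stood well above the dim level in CL_WT2 alone.

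Among the apolipoproteins, Apoa1 and Apoa4 were high throughout the stomach and low in 5 of the 6 colon arrays. Apoa1, the main protein of high-density lipoprotein and also a chylomicron protein, lay at 13.94 and 13.82 in stomach WT, 13.77 and 13.86 in stomach HET and 13.88 and 13.56 in stomach KO. In colon it lay at 7.0 in WT 1, 5.58 and 6.18 in HET and 6.15 and 4.21 in KO, and at 14.32 in CL_WT2. The stomach and the 5 other colon arrays did not overlap, and the stomach median was 115-fold above the highest of those colon arrays. After normalization CL_WT2 read 0.38 above the highest stomach array, WT 1. The deposited intensities were 20209 in CL_WT2 and 18883 in stomach WT 1. In bulk tissue, fewer cells of a type and less RNA per cell cannot be told apart. The other Apoa1 probe set gave the same split, with 13.17 to 13.63 in stomach, 4.21 to 6.90 in the 5 colon arrays and 14.37 in CL_WT2.

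Apoa4, a chylomicron apolipoprotein made in response to fat, lay at 10.91 and 10.83 in stomach WT, 10.66 and 11.40 in HET and 10.83 and 11.02 in KO. In colon it was dim in WT 1 (4.12), HET (4.15 and 4.88) and KO (4.07 and 4.19), and at 10.85 in CL_WT2, inside the stomach range. The stomach median was at least 20.3-fold above those colon arrays, taken against the dim level.

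Apoc3, which restrains lipolysis of circulating particles, did not follow its neighbours. In the RefSeq gene order Apoa1, Apoc3 and Apoa4 are consecutive coding genes on chromosome 9. Apoc3 lay at 8.52 and 7.17 in stomach WT, 6.11 and 7.83 in HET and 5.70 and 6.21 in KO. In colon the levels were 6.96 in WT 1, 7.49 and 7.28 in HET and 7.65 and 5.68 in KO, with 12.08 in CL_WT2. The stomach and other colon arrays overlapped, and CL_WT2 was above the highest of all 11 other arrays by 3.56. Across the 11 arrays without CL_WT2 the correlation of Apoa1 was 0.99 with Apoa4 and 0.02 with Apoc3, a description over arrays that share their tissues.

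Mttp, the transfer protein that loads lipid onto the chylomicron scaffold Apob, was near or below the dim level in every array except CL_WT2. It lay between 5.15 and 6.57 in the 6 stomach arrays and between 5.19 and 5.84 in the 5 other colon arrays, and at 12.07 in CL_WT2. The other Mttp probe set gave 5.15 to 6.27, 5.19 to 5.69 and 12.13. In stomach, high Apoa1 and Apoa4 were thus measured beside Mttp that was dim in 5 of 6 arrays.

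The intracellular lipid carriers split between the tissues. Fabp1, a fatty acid binding protein of liver and proximal intestine, lay at 9.62 and 8.63 in stomach WT, 8.54 and 9.31 in HET and 8.61 and 7.53 in KO. In colon it lay at 5.89 in WT 1, 6.03 and 6.44 in HET and 6.71 and 4.86 in KO, and at 10.81 in CL_WT2. The lowest stomach array was 0.82 above the highest of the 5 colon arrays, and the other probe set kept them apart too (7.67 to 9.45 against 4.89 to 6.52).

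Fabp2, the intestinal fatty acid binding protein, ran the other way. It lay at 13.32 in colon WT 1, 13.38 and 13.51 in HET, 13.59 and 12.97 in KO and 14.18 in CL_WT2, against 5.80 to 7.16 in stomach. The median of the 5 colon arrays was 74.7-fold above the highest stomach array. Fabp2 and Rbp2 were the only genes of the set above the dim level in all colon arrays, and of the 9 genes Fabp2 differed least between CL_WT2 and the others.

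Rbp2, the cellular retinol binding protein of enterocytes, lay at 8.98 and 9.38 in stomach WT, 9.88 and 9.86 in HET and 9.96 and 9.26 in KO. In colon it lay at 8.45 in WT 1, 6.73 and 7.55 in HET and 7.23 and 7.14 in KO, and at 11.20 in CL_WT2. The tissues did not overlap without CL_WT2, though the gap between colon WT 1 and the lowest stomach array was 0.53.

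Both bile acid genes were dim in stomach. Fabp6, the ileal bile acid binding protein whose promoter carries the inverted repeat shown above, lay between 4.26 and 5.94 in the 6 stomach arrays. In colon it lay at 8.73 in WT 1, 6.32 and 5.84 in HET, 6.61 and 6.42 in KO and 14.42 in CL_WT2, where its deposited intensity of 26509 was the highest value on the array. Fgf15, the hormone induced by bile acids, lay between 4.09 and 5.92 in stomach and between 4.07 and 4.89 in the 5 other colon arrays, and at 9.78 in CL_WT2. Colon WT 1 thus held Fabp6 above the dim level while Fgf15 stayed dim (4.26).

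Counted over the set, all 6 stomach arrays lay above the 5 other colon arrays in 4 of 9 genes (Apoa1, Apoa4, Fabp1 and Rbp2), where 14.8% of all 11807 genes did so. The reverse held for 1 of 9, Fabp2, where 11.5% of all genes did so. These 5 colon arrays were the low side of the contrast that chose the genes, so no test is given. Within HET, colon minus stomach was -7.94 for Apoa1, -6.51 for Apoa4, -2.69 for Fabp1, -2.73 for Rbp2 and 6.96 for Fabp2. Within KO the same differences were -8.54, -6.79, -2.28, -2.42 and 7.33. With CL_WT2 in the mean, the WT differences were -3.22, -3.39, -0.78, 0.65 and 7.58, so the sign of Rbp2 turned.

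**Figure D2:**
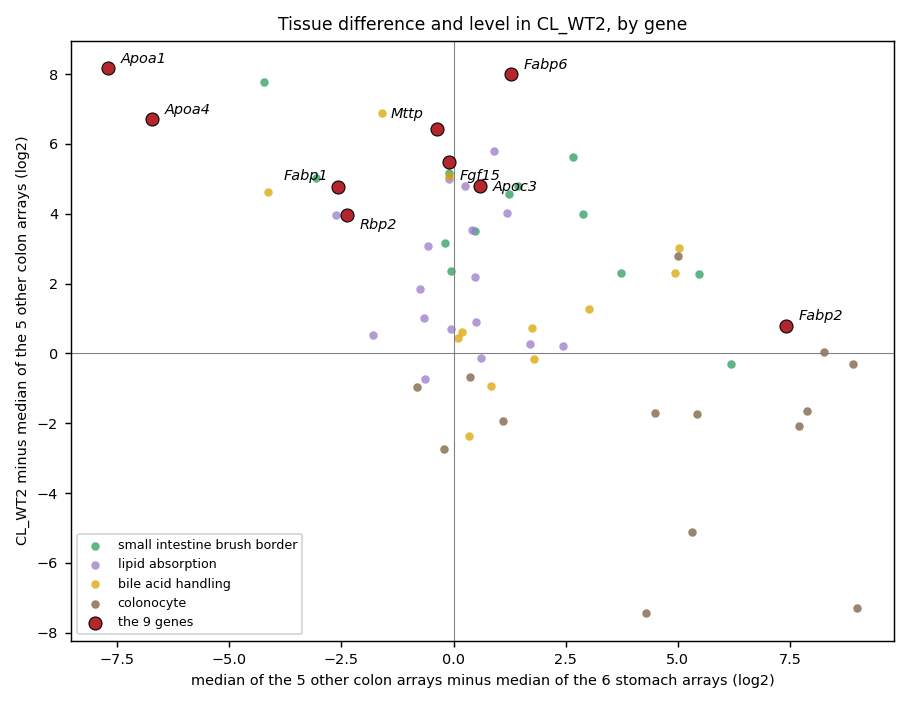
Each point is a gene, with the median of the 5 other colon arrays minus the median of the 6 stomach arrays on the x axis and CL_WT2 minus the median of the 5 other colon arrays on the y axis, both in log2 units. The 9 genes (large points) spread from -7.69 for Apoa1 to 7.41 for Fabp2 along the tissue axis, and all but Fabp2 (0.80) lie at 3.97 or more on the other axis, while Car1 of the colonocyte list lies at -7.28.

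Whether the brightest probe sets were saturated was not tested, and Fabp6 was the brightest of CL_WT2. If they were, the folds of Fabp6 and Apoa1 are lower bounds. In CL_WT2 the fold above the highest other colon array was 160 for Apoa1, 51.5 for Fabp6, 21.6 for Apoc3, 17.1 for Fabp1 and 6.72 for Rbp2. Against the dim level, where every other colon array was dim, it was at least 46.7 for Mttp, at least 20.01 for Apoa4 and at least 9.50 for Fgf15. For Fabp2 it was 1.51. The excess was over 1 on the log2 scale in 8 of 9 genes, with Rbp2 (2.75) nearest inside that line and Fabp2 (0.60) outside it, against 3.11% of all genes, a share from which nothing is read since this contrast chose the genes. Ranked over all 11807 genes by this excess, Apoa1 was number 2, Mttp 7, Apoa4 10, Fabp6 13, Fgf15 20, Apoc3 28, Fabp1 38, Rbp2 78 and Fabp2 722.

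Other genes of the same pathways were read from lists drawn up with earlier results of these data known. Of all 11807 genes, 3.11% were over 1 above the highest other colon array in CL_WT2 and 2.18% were over 1 below the lowest. Of 17 measured genes of lipid absorption, 9 were over 1 above the highest other colon array in CL_WT2 and none was over 1 below the lowest, with a median difference from the 5 others of 1.85, against -0.05 over all genes. The largest were Abcg5, a sterol exporter (11.86 against 4.10 to 6.50), Creb3l3, a membrane-bound factor that drives apolipoprotein genes (11.41 against 6.13 to 7.01), and Mogat2, which rebuilds triglyceride from monoglyceride (11.51 against 5.5 to 7.10). Of 12 genes of bile acid handling, 5 were above and 1 below, with a median of 1.01. Cyp3a11, a cytochrome that hydroxylates bile acids, was at 12.07 against 4.80 to 5.68, the apical exporter Abcc2 at 9.38 against 4.22 to 4.87, and Nr0b2, an FXR target, at 9.76 against 4.36 to 5.4. Of 8 retinoid genes, 2 were above, the retinol dehydrogenase Rdh7 (9.32 against 4.14 to 4.88) and the carotene cleaving enzyme Bco1 (7.96 against 5.14 to 5.65), while plasma retinol binding protein Rbp4 (8.45 against 8.32 to 10.54) was not. Rdh7 and Nr0b2 were also bright in stomach (9.74 to 10.49 and 9.0 to 9.73).

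Markers of neighbouring cell types in CL_WT2 were as follows. Of 13 measured small intestine brush border genes, 12 were over 1 above the highest other colon array, with a median of 3.99, led by the peptidase Anpep (13.52 against 5.44 to 6.66), the vitamin B12 receptor Cubn (12.80 against 5.60 to 7.88) and the glucose transporter Slc2a2 (9.43 against 4.12 to 4.94). Of 5 Paneth cell genes, 2 were above, the defensin Defa31 (13.87 against 4.14 to 8.10) and the lysozyme Lyz1 (7.75 against 4.84 to 5.70), while Mmp7 was at 10.57 against 9.91 to 12.58. Of 14 colonocyte genes, 9 were over 1 below the lowest other colon array and 1 was above, with a median of -1.72, where 2.18% of all genes were over 1 below and 3.11% above. Among those below were the water channel Aqp8 (5.54 against 8.82 to 12.36) and Sycn (4.43 against 8.51 to 12.75). Of 11 posterior patterning genes, 3 were below and none above, Hoxa10 given above, Hoxa9 (4.32 against 6.74 to 8.03) and Hoxa11 (5.66 against 7.09 to 8.25). Of 5 proximal small intestine genes, Ada was above (10.54 against 6.75 to 7.96), the iron exporter Slc40a1 was below (7.97 against 9.74 to 10.53) and Gata4, which marks duodenum and jejunum, was dim at 5.21. The 9 stomach genes and the 5 adipose genes had none beyond 1 in either direction. In the stomach list Atp4b, of acid-secreting cells, was dim (4.58 against 5.08 to 6.75), as was the mucous cell gene Gkn1 (4.28 against 4.28 to 6.01), and Tff1 was at 7.28 against 6.40 to 6.71. In the adipose list Retn was at 8.66 against 5.14 to 8.41, Fabp4 at 13.09 against 10.54 to 13.22 and leptin (Lep) at 5.66 against 4.26 to 6.30. Liver genes had 1 of 14 above, Serpina1b (8.37 against 5.99 to 6.66), and 1 below, Tat (5.08 against 7.43 to 8.52), with albumin (Alb) dim at 4.25, and of 8 exocrine pancreas genes only Cela1 (7.74 against 9.07 to 11.81) was below and none above, with Cpa1 (5.54 against 4.10 to 6.16) and Prss2 (4.41 against 5.401 to 6.29) dim. The part of these cell types in the levels of the 9 genes was not tested.

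**Figure D3:**
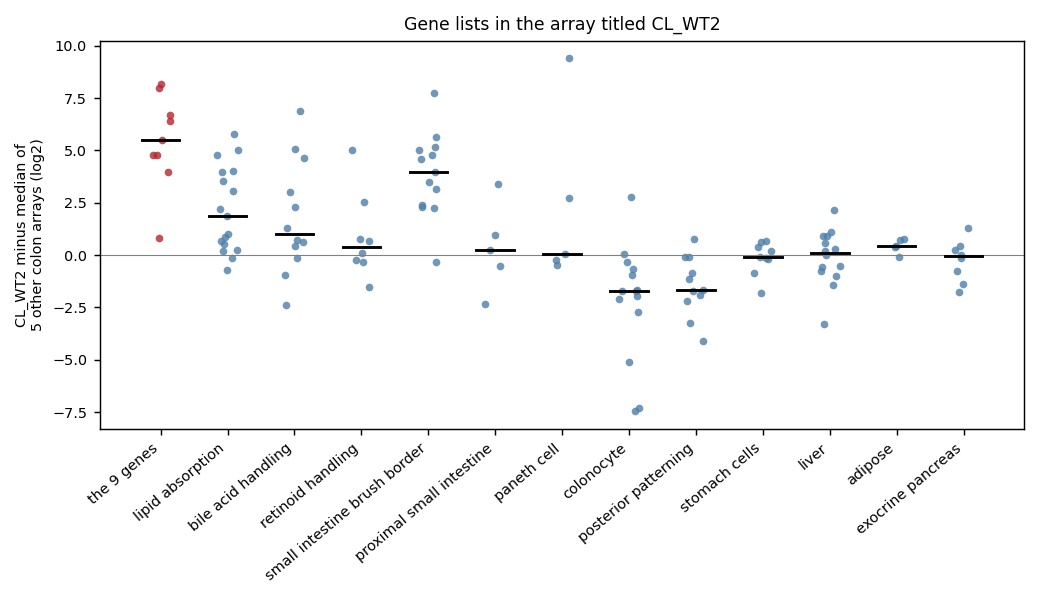
CL_WT2 minus the median of the 5 other colon arrays (log2) for the 9 genes and for each gene list, with 1 point per gene and a bar at the median. The medians were 5.48 for the 9 genes, 3.99 for brush border, 1.85 for lipid absorption, 1.01 for bile acid handling, -1.72 for colonocyte and -1.68 for posterior patterning genes.

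By Pearson correlation over the 12 arrays with the mean standardised level of the 9 genes, the most similar other gene was Dgat1 (r = 0.990), which makes triglyceride. It was followed by Xpnpep1 (0.974), Slc25a15 (0.971), Aldh9a1 (0.971), Tm4sf4 (0.967), the lipid droplet protein Plin3 (0.959), the fructose kinase Khk (0.957), C1qtnf12 (0.952), Tprkb (0.946) and Sptssa (0.944), a subunit of sphingolipid synthesis. This ranking holds CL_WT2, whose contrast chose the 9 genes, so it is a description only. Without CL_WT2 the correlations of these 10 genes, picked with it, were between 0.70 and 0.87. Dgat1 was still the highest of the 10 at 0.87. Dgat1 lay at 12.13 in CL_WT2, between 8.78 and 9.10 in the other colon arrays and between 9.48 and 9.92 in stomach. The 9 genes themselves had correlations from -0.01 (Fabp2) to 0.91 (Mttp) with their own mean, so they did not share a single course.

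Colon WT 1, the only WT colon array besides CL_WT2, lay above all 4 colon HET and KO arrays in 3 of 9 genes, where 21.0% of all genes did so. These were Fabp6, by 2.12 (4.36-fold), Rbp2, by 0.90, and Apoa1, by 0.82. Apoa4, Apoc3, Mttp, Fabp1, Fabp2 and Fgf15 in colon WT 1 were under the highest HET or KO array. The Paneth cell gene Defa31 was at 8.10 in colon WT 1 and between 4.14 and 5.13 in HET and KO, whereas Lyz1 was dim there (5.70). Colon WT 1 also carries the processing note RMA, which no other colon array does, and the part of either in these values was not tested.

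Set against both WT arrays, colon KO minus WT was -5.48 for Apoa1, -5.06 for Fabp6, -3.36 for Apoa4, -3.02 for Mttp, -2.86 for Apoc3, -2.64 for Rbp2, -2.58 for Fgf15, -2.56 for Fabp1 and -0.47 for Fabp2, and HET minus WT ran from -5.496 (Fabp6) to -0.31 (Fabp2). Against colon WT 1 alone the values were -1.82 for Apoa1, -2.22 for Fabp6, -1.26 for Rbp2 and between -0.30 and 0.42 for the other 6. For HET the values against WT 1 were -1.12, -2.65 and -1.31 for the same 3 genes and between 0.12 and 0.59 for the other 6. The WT mean of Apoa1 had an SD of 5.18 (n = 2), against 0.42 in HET and 1.37 in KO. No test is given, since both WT arrays took part in choosing the genes.

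Colon KO against HET compares 4 arrays that together were on the low side of the contrast that chose the genes, while the difference among them did not enter the choice. In this comparison 4 of the 9 genes reached the dim level in at least 2 of the 5 colon arrays and were tested, and none passed limma's adjusted p of 0.05, where 0.102% of 7824 genes passed (8 genes, 427 without colon KO 1 and 57 without colon KO 2). None of the 4 had an unadjusted p under 0.05 in limma, where 7.40% of all genes did. The differences were -0.72 for Apoc3 (95% interval -2.35 to 0.90, limma adjusted p = 0.860), -0.17 for Fabp2 (-1.06 to 0.72, adjusted p = 0.935), 0.05 for Rbp2 (-0.62 to 0.72, adjusted p = 0.977) and 0.43 for Fabp6 (-0.93 to 1.79, adjusted p = 0.896). Fabp6 was tested through colon WT 1 and KO 1 and was dim in both HET arrays and KO 2. Both its KO arrays were above both HET arrays, as in 20.0% of all genes tested, and its difference was 0.19 without HET 2 and 0.67 without HET 1. Changes of these sizes lie inside the intervals and are not shown to be absent. Apoa1, Apoa4, Mttp, Fabp1 and Fgf15 were too dim to test.

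Colon KO 2 was the lowest colon array for Apoa1 (4.21), Apoc3 (5.68), Fabp1 (4.86) and Fabp2 (12.97, against 13.32 in WT 1). It was not the lowest for Apoa4, Mttp, Rbp2, Fabp6 or Fgf15. Apoa1 and Fabp1 were dim in both HET arrays too. The share of all genes lowest in KO 2 was not computed, so nothing is read from this count. A pair of bile acid transporters, named after their values were seen, was also lowest there, with larger differences. Slc10a2, which takes bile acids up from the lumen, lay at 4.26 in KO 2, against 10.78 in KO 1, 10.61 and 10.18 in HET, 9.56 in WT 1 and 12.48 in CL_WT2. Slc51a, a subunit of the basolateral exporter, lay at 5.72 in KO 2, against 10.75 in KO 1, 10.15 in both HET arrays, 9.91 in WT 1 and 13.16 in CL_WT2. The bile acid receptor Nr1h4 differed less (9.67 in KO 2 and 9.85 to 10.94 in the other 4). Adipose genes were low in the same array, with a list mean of 6.75 where the other colon arrays had 8.53 to 9.60, and exocrine pancreas genes were high (7.61 against 5.29 to 5.60). The part of these in the levels of the 4 genes was not tested.

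In stomach the genotypes could be compared without any array that chose the genes, and 5 of the 9 were tested. None passed in HET against WT (0% of 7857 genes passed), in KO against WT (0.0382%) or in KO against HET (0.0127%) by limma with an adjusted p under 0.05. An unadjusted limma p under 0.05 was found for Rbp2 in HET against WT, where 3.45% of all genes had one, for Apoc3 in KO against WT, where 5.70% did, and for none of the 5 in KO against HET, where 236 of 7857 genes did. Mttp, Fabp2, Fabp6 and Fgf15 were too dim to test. Both stomach KO arrays carry the processing note RMA and no other stomach array does, so a difference in processing and the KO genotype cannot be told apart.

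Apoa1 and Apoa4 differed little between the genotypes in stomach. KO minus WT was -0.16 for Apoa1 (95% interval -1.26 to 0.94) and 0.05 for Apoa4 (-0.60 to 0.70), with limma adjusted p-values of 0.988 and 0.995. HET minus WT was -0.06 and 0.16. The genotypes overlapped in both genes.

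Rbp2 was higher in both HET arrays than in both WT arrays of stomach, as were 17.0% of all genes tested. The difference was 0.69 (SE 0.30, 95% interval 0.02 to 1.36, limma unadjusted p = 0.0442, adjusted p = 0.9996), and KO minus WT was 0.43 (-0.24 to 1.10, adjusted p = 0.880). Between 0.49 and 0.89 over the alternatives, the HET difference kept its sign and did not pass in any.

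Apoc3 and Fabp1 were lower in both KO arrays than in both WT arrays of stomach, as were 16.7% of all genes tested. Apoc3 differed by -1.89 (SE 0.72, 95% interval -3.51 to -0.27, limma unadjusted p = 0.0270, adjusted p = 0.803), with a KO mean below the dim level, and by -1.21 without stomach WT 1. It reached the dim level in both WT arrays and HET 2 and in no other stomach array. The arrays where Apoc3 was high thus admitted it to the test, and nothing is read from its unadjusted p. Fabp1 differed by -1.06 (SE 0.60, -2.42 to 0.30, adjusted p = 0.865). Fabp1 was -0.52 without stomach KO 2, -0.56 without WT 1 and -1.60 without KO 1. Neither gene passed. Levels of genes made mainly by liver varied over the same arrays. The mean of the 14 liver genes was 8.84 and 6.59 in stomach WT, 6.18 and 7.96 in HET and 5.45 and 5.28 in KO, and albumin was at 12.42 and 9.36, 8.39 and 11.66, and 7.26 and 6.53 in the same order. Apoc3 and Fabp1 were highest in stomach WT 1 and next highest in HET 2, the arrays with the highest liver mean. The other Fabp1 probe set was also highest in WT 1 (9.45), with WT 2 (9.02) and HET 2 (8.997) nearly equal. Of 13 liver genes tested between KO and WT stomach, 1 passed, Serpina1b, at -3.68 (limma adjusted p = 0.0468), where 0.0382% of 7857 genes passed. Serpina1b was dim in both KO arrays (4.95 and 5.20). The WT and HET arrays, where it was high, thus admitted it to the test, and nothing is read from its call. The median of the 13 liver genes was -2.29, against 0.01 over all genes. Without stomach WT 1 or without HET 2 only 6 of the 13 were tested. The rest thus entered through these arrays, where they were high, and nothing is read from the median. The Serpina1b call was lost with all 12 arrays (limma adjusted p = 0.539), an offset of 64 (0.164), no trend (0.117) and the replicate block (0.104). It was also lost with a filter at the median (0.0621), no filter (0.0566) and normalization within each tissue (0.0509). Leaving out stomach WT 1, KO 1 or KO 2 lost it too, with differences of -3.07, -3.56 and -3.80, as did leaving out either colon HET array. The other alternatives kept it. Cyp3a11, of liver and intestine, differed by -2.71 without passing. Only both WT arrays and HET 2 reached the dim level for Cyp3a11, so nothing is read from its difference. Apoa1, which liver also makes, stayed between 13.56 and 13.94 in the 6 stomach arrays. The part of liver RNA in Apoc3 and Fabp1 was not tested.

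**Figure D4:**
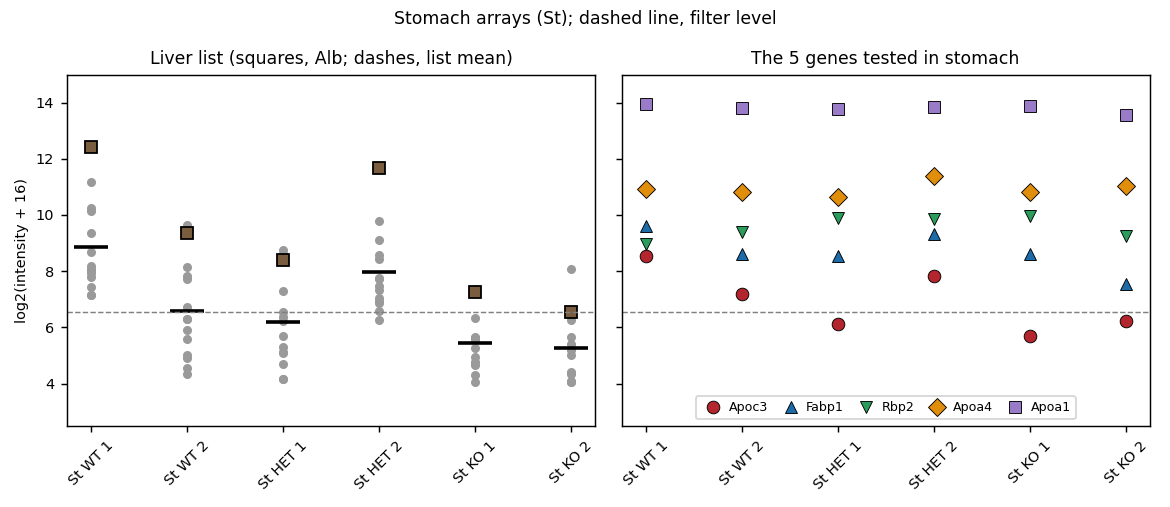
Levels in the 6 stomach arrays as log2(intensity + 16), with 14 liver genes on the left (squares, albumin; horizontal dashes, the list mean) and the 5 genes tested in stomach on the right. The dashed line is the dim level of 6.53. The liver mean was highest in WT 1 (8.84) and HET 2 (7.96), as were Apoc3 (8.52 and 7.83) and Fabp1 (9.62 and 9.31), while Apoa1 stayed between 13.56 and 13.94.

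The other pathway lists gave no call in stomach or between KO and HET in colon. In KO against WT stomach, 0 of 14 tested lipid absorption genes, 0 of 7 bile acid genes and 0 of 4 retinoid genes passed in limma, with medians of -0.05, 0.06 and -0.13 and with 0, 1 and 0 at an unadjusted p under 0.05. That 1 was Cyp3a11, which was dim in both KO arrays, so nothing is read from it. In KO against HET colon, 0 of 13, 0 of 9 and 0 of 3 passed, with medians of -0.14, 0.07 and -0.70 against 0.02 over all genes, and with 2, 0 and 1 at an unadjusted p under 0.05. Over all genes tested these shares were 5.70% in stomach and 7.40% in colon.

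The KO minus HET difference was compared between the tissues for Apoc3 and Rbp2, the genes tested in both. For Apoc3 it was -0.72 in colon and -1.02 in stomach, and colon minus stomach was 0.29 (95% interval -2.0 to 2.59). For Rbp2 it was 0.05 in colon and -0.26 in stomach, with colon minus stomach at 0.31 (-0.64 to 1.26). Neither passed (limma adjusted p = 0.9996 for both), with 0% of 7336 genes past the threshold (73 genes without colon KO 1).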

How the data were processed

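The series holds 12 arrays in 6 groups of 2. The authors deposited 1 intensity on a linear scale for every probe set. Per the submitters' processing notes, 9 arrays were processed with MAS5, and both stomach KO arrays and colon WT 1 with RMA (versions not given). Array medians ran from 123.8 to 159.1, and trimmed means were close to 500.1 on every array under either note. The number of arrays, not a read depth, limits the precision.

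Of 22716 probe sets, 90 controls were left out and 18003 had 1 gene, giving 11807 genes, each read by its brightest probe set. Values were taken as log2(intensity + 16) and quantile-normalized. Genes entered the tests of a tissue if at least 2 of its arrays were at or over 6.53, the 40th percentile, an intensity of 76.5. Group means over 11 arrays were estimated by limma 3.58.1 (R 4.3.3), whose prior variance followed the intensity. The array CL_WT2 was left out because the spread between the WT colon arrays is the contrast that chose the genes. Benjamini-Hochberg adjustment covered all genes tested in the tissue, with a threshold of 0.05. Figures used Python 3.11.15 and matplotlib 3.10.9.

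On simulated data for stomach KO against WT (7839 genes), 98% of changes of -2 and 68% of changes of -1 were recovered, with 10 false calls. The changes were planted in bright genes only, 50 of each size, with independent normal noise. These shares therefore do not give the power for the 9 genes. The alternatives were other normalizations, offsets of 1 and 64, no filter or a filter at the median, no trend, all 12 arrays, each tissue alone, every probe set, a replicate block and leaving out each array. The genes and lists were chosen with earlier results of these data known. The text names every one of the 9 genes, in each list the 3 genes with the largest difference of CL_WT2 from the median of the other colon arrays, and the 10 genes most like the set. Other genes are named as chosen after their values were seen or as markers that moved with a result.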

Additional observations from a re-analysis of the deposited data

How the results depend on the processing

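In all 5 comparisons tested, no gene of the set passed under any alternative, and the numbers of genes in which CL_WT2 exceeded the other colon arrays by over 1, in which the tissues did not overlap, in which colon WT 1 exceeded HET and KO, and in which colon HET and KO were lower than WT by over 1 stayed within 1.5 times. No alternative apart from leaving out an array turned the sign of a tested difference. Leaving out each array in turn gave these ranges, all of differences that did not pass. For HET minus WT in stomach they were -0.70 to 0.30 for Fabp1 and -0.22 to 0.53 for Apoa4. For KO minus WT in stomach Apoa4 ran from -0.046 to 0.14. For KO minus HET in stomach they were -0.48 to 0.27 for Apoa4, -0.26 to 0.061 for Apoa1 and -0.61 to 0.086 for Rbp2. For KO minus HET in colon they were -0.36 to 0.46 for Rbp2, -1.71 to 0.26 for Apoc3, -0.48 to 0.14 for Fabp2 and 0.19 to 0.67 for Fabp6. Fabp6 was too dim to test without colon WT 1 or without KO 1, so its range leaves these out. For colon minus stomach of that difference they were -0.69 to 1.28 for Apoc3 and -0.10 to 0.73 for Rbp2. Counts of calls over all genes moved more. Leaving out 1 array gave 0 to 1 calls for HET minus WT in stomach, 1 to 12 for KO minus WT (against 3; 12 without HET 2), 1 to 27 for KO minus HET (against 1; 27 without HET 2), 5 to 427 for KO minus HET in colon (against 8; 427 without KO 1) and 0 to 73 for its difference between tissues (against 0; 73 without colon KO 1). Calls for KO minus WT in stomach were 7 with each tissue alone, 6 with every probe set, 1 with all 12 arrays or no trend and 2 or 3 otherwise, and those for KO minus HET in colon were 0 with each tissue alone, 2 with all 12 arrays and 7 to 9 otherwise. The cause was not tested. With an offset of 1 or 64 the differences of dim genes moved by more than the spread between replicates, as for Apoa4 in CL_WT2 (6.99 and 4.62 against 5.97). The labels number the arrays of each group 1 and 2 and do not say that a number marks a shared animal, and between groups the deviations of same-numbered arrays correlated from -0.24 (stomach WT and HET) to 0.32 (colon HET and KO). With the replicate block, 0 genes of the set passed in each comparison, as without it, and over all genes the calls were 2 against 3 in KO minus WT stomach and 7 against 8 in KO minus HET colon.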

Other observations

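Colon arrays of the same genotype also differed in genes of position along the colon, which were chosen after their values were seen. Hoxb13, the most posterior gene of its cluster, lay at 10.81 in colon KO 2 and 8.24 in colon HET 2, and between 4.24 and 4.39 in colon WT 1, HET 1, KO 1 and CL_WT2. The water channel Aqp8 was at 12.19 in KO 2 and 12.36 in HET 2, 10.66 in WT 1, 9.07 in HET 1, 8.82 in KO 1 and 5.54 in CL_WT2. Guca2b, the hormone uroguanylin, was the colonocyte list's exception in CL_WT2, at 13.50 against 10.16 to 11.17 in the other colon arrays. Abcc3, a basolateral exporter of bile acid conjugates, was the bile acid gene that was lower there, at 9.24 against 11.18 to 12.04.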
